A study of Rattus norvegicus with 9 samples.

Results

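The genes described here encode the proteins of the cytosolic ribosome, measured in skin of old male Wistar rats (24 months, 4 animals) and young male Wistar rats (6 months, 5 animals). Wistar is an outbred albino stock, so animals of the same age are not genetically identical. The members were chosen by name: every symbol that starts with Rpl or Rps and a number, without the 10 S6 kinase symbols, plus Rplp0, Rplp1, Rplp2 and Rpsa. This gave 105 of the 23480 symbols in the count table. Of these, 77 are core ribosomal proteins, 46 of the large and 31 of the small subunit, 8 are named paralogues (Rpl3l, Rpl7l1, Rpl10l, Rpl22l1, Rpl36al, Rpl39l, Rps27l and Rps4y2) and 19 are symbols of further copies. The last, Rps19bp1, matches by name only: it encodes a protein that binds Rps19 and is not part of the ribosome. Polyadenylated RNA was sequenced from whole skin, and the sources used here do not give the body site.

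A cytosolic ribosome joins a small subunit, which reads the mRNA, and a large subunit, which links the amino acids. Each core protein is usually present once per ribosome, and cells make these proteins in matched amounts. Their mRNAs begin with a run of pyrimidines, the terminal oligopyrimidine or TOP motif, through which the kinase mTOR and the RNA-binding protein Larp1 regulate translation. Mammalian genomes hold many processed copies of these genes, most of them pseudogenes, and short reads are hard to place among near-identical copies. Among RefSeq genes of the rat (GRCr8), every one of the 77 core members had at least 1 symbol named as its pseudogene or like-gene. The number of such symbols ran from 1 for Rpl41 to 36 for Rps2, with a median of 15. Together they made 1095 symbols, 871 of them pseudogenes. All 77 core members are therefore flagged for copies, and the sources used here do not say how reads that match several copies were counted.

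The naming rule did not use the sequence at the annotated start. A pyrimidine run beginning with C exactly there was found in a minority of the core members, though in a larger share than of all promoter entries. Each sequence below runs from 20 bases before to 20 bases from the annotated start (RefSeq, GRCr8), with the unbroken pyrimidine run that begins at the start in capitals. The first 6 are core members picked because they have a pyrimidine run, so they show its form and not how common it is. In Rps9 the run begins with T, so it is not among those counted below as beginning with C. The last 3 are paralogues without one, of which Rpl22l1 and Rps27l stand beside their core genes Rpl22 and Rps27.
Rplp0, chr12:46718371-46718410, minus strand: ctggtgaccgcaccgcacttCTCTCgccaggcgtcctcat
Rpl22, chr5:168117941-168117980, plus strand: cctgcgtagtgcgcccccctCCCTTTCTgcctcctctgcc
Rpl37, chr2:55942925-55942964, plus strand: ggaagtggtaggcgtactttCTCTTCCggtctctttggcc
Rps9, chr1:74430418-74430457, minus strand: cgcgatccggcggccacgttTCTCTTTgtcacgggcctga
Rps26, chr7:1643385-1643424, minus strand: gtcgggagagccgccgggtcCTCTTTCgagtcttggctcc
Rps27, chr2:177964587-177964626, minus strand: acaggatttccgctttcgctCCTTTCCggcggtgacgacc
Rpl3l, chr10:14258426-14258465, plus strand: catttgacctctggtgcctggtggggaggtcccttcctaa
Rpl22l1, chr2:113683176-113683215, plus strand: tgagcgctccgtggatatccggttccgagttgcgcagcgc
Rps27l, chr8:76443638-76443677, plus strand: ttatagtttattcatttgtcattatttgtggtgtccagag

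A C at the annotated start followed by at least 4 more pyrimidines (C or T) stood in 24 of the 62 core members with an entry in the promoter table, or 38.7%. The same feature stood in 2.63% of all 33469 entries. At the start or within 5 bases of it, the feature stood in 40 of the 62, or 64.5%, against 17% of all entries. Within 20 bases before to 30 after the start, the letters CTTTCC stood on the forward strand of 18 of the 62 (29%, against 2.15% of all entries) and on the reverse strand of 1 (1.61%, against 2.33%). A start a few bases off in the annotation hides such a run, so an absent match says only that these letters are not in this window. The core members lie on 19 chromosomes and form no single cluster. Of those steadily measured in these libraries, as defined below, 19 had the feature at the annotated start itself and 28 did not. The median log2 fold change (old over young) was -0.24 in the 19 and -0.26 in the 28.

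Total counts were 20.1 to 34.1 M (M, 1e+06 counts) in old skin and 17.3 to 20.2 M in young skin. In old replicates 1 and 3 every value in the table was an even number, while each of the other 7 libraries held 8874 to 9227 odd values. With these 2 columns halved, their totals were 17.1 and 14.7 M, and the old range became 14.7 to 25.0 M. The sources used here give no reason. The counts were tested as deposited, and the calls among the members were the same 2 genes with these columns halved and without both libraries. Markers of skin were present in every library: keratinocyte, fibroblast, endothelial and fat cell genes, and skeletal muscle genes, whose 25 markers took 3.45 to 16.0% of counts in old skin and 8.08 to 16.5% in young skin. Macrophage markers took 0.0755 to 0.164% of counts in old skin and 0.0172 to 0.0311% in young skin.

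The core members fell into 3 kinds by how they were measured. First, 59 were steadily measured, with a mean of 3.63 to 2362 counts per 1e+06 (CPM, normalized for library size and composition by the TMM method). Second, 14 stayed under 5 CPM in every library, although the cytosolic ribosome of every cell is built with these proteins. The remaining 4 differed at least 5-fold between libraries of the same age. The limits of 5 CPM and 5-fold were chosen after the values were seen. CPM is not corrected for transcript length, so the order of the genes along the plot of levels is not an order of transcript abundance.

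**Figure D1:**
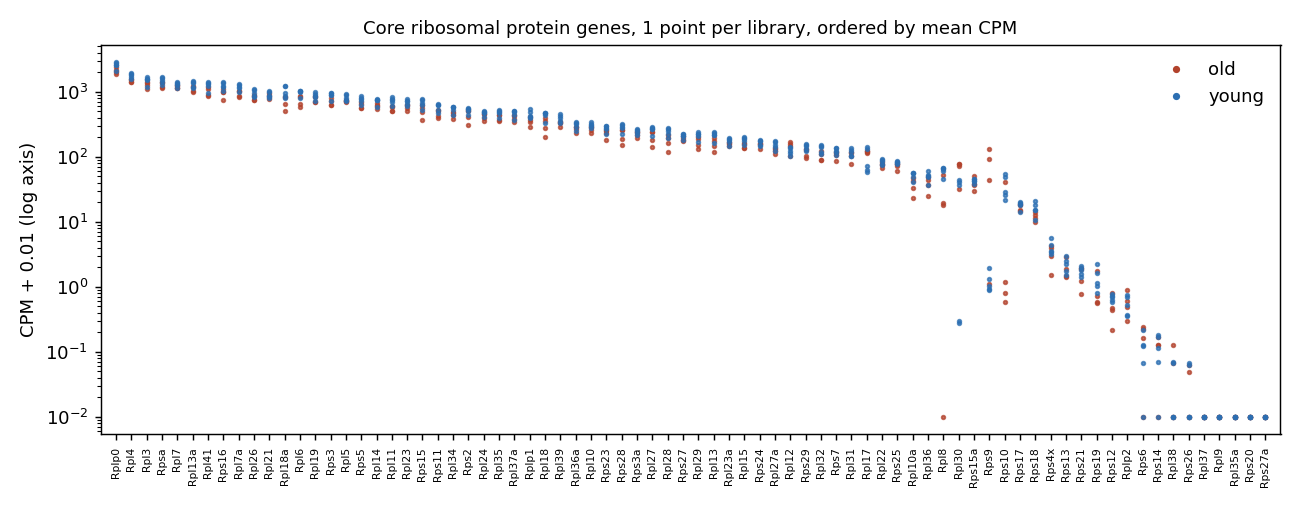
CPM plus 0.01 on a log axis for 76 core ribosomal protein genes, ordered by mean CPM, with 1 point per library (old red, young blue). Points of most genes lie close together, those of Rpl8, Rpl30, Rps9 and Rps10 spread widely, and 14 genes lie under 5 CPM in every library.

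The 14 members of low count were Rpl9, Rpl35a, Rpl37, Rpl38, Rplp2, Rps6, Rps12, Rps13, Rps14, Rps19, Rps20, Rps21, Rps26 and Rps27a. Of these, Rpl9, Rpl35a, Rpl37, Rps20 and Rps27a were listed at 0 in all 9 libraries. Rps6, the small subunit protein that S6 kinases phosphorylate, had at most 8 counts in any library. Rplp2, a protein of the stalk that recruits elongation factors, had 18, 17, 10 and 15 counts in old replicates 1 to 4, against 14, 9, 6, 13 and 6 counts in young replicates 1 to 5. Its stalk partner Rplp1 had 7188 to 15578 counts in old and 6808 to 9379 counts in young skin. The 14 had a median of 13 copy symbols in RefSeq and the 59 steady members a median of 15, and these ranges of copy numbers overlapped. Because the cytosolic ribosome of every cell is built with these proteins, the low counts of the 14 genes are not read as levels of their mRNAs. The cause of the low counts was not tested.

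Of the 105 members, 82 passed the filter on low counts and were tested, and 23 did not pass. The difference between the ages was small for nearly all of them and in the same direction. The log2 fold change (old over young) was below 0 in 74 of the 82, or 90.2%, against 54.3% of the 14933 genes tested. The median was -0.26 over the members and -0.05 over all genes tested. Of the 59 steadily measured core members alone, 57 lay below 0, with a median of -0.27. One by one, 2 members passed the test, both higher in old skin: Rps9 and Rps4y2 (edgeR quasi-likelihood test, Benjamini-Hochberg adjusted p under 0.05). Over all genes, 14.0% passed, with 9.62% higher and 4.41% lower in old skin. None of the members passed as lower with edgeR. At an unadjusted p under 0.05, 18 members were lower and 2 higher in old skin, where the shares over all genes were 13.3% and 16.1%. DESeq2 called 9 members lower of 86 with an adjusted p (7.80% of all genes), and limma-voom called 1, Rps10 (4.88% of all genes). DESeq2 called the same 2 members higher (12% of all genes), and limma-voom called 0 higher (8.87% of all genes). Among those called lower by DESeq2 were Rpl4, Rpl6, Rpl7a, Rpl11, Rpl15, Rpl28, Rps3 and Rps16.

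The members' distance from 0 moved with the scaling. A change of scaling shifts every gene by nearly the same amount. The members' distance from the median of all genes is thus bound to move little, and this is no test of it. With library totals alone, the median was -0.11 for the members and 0.11 for all genes. The difference between both medians was -0.23 with library totals and -0.22 with TMM. Since the tissue is bulk skin, fewer cells that are rich in these mRNAs and less of the mRNAs per cell cannot be told apart.

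**Figure D2:**
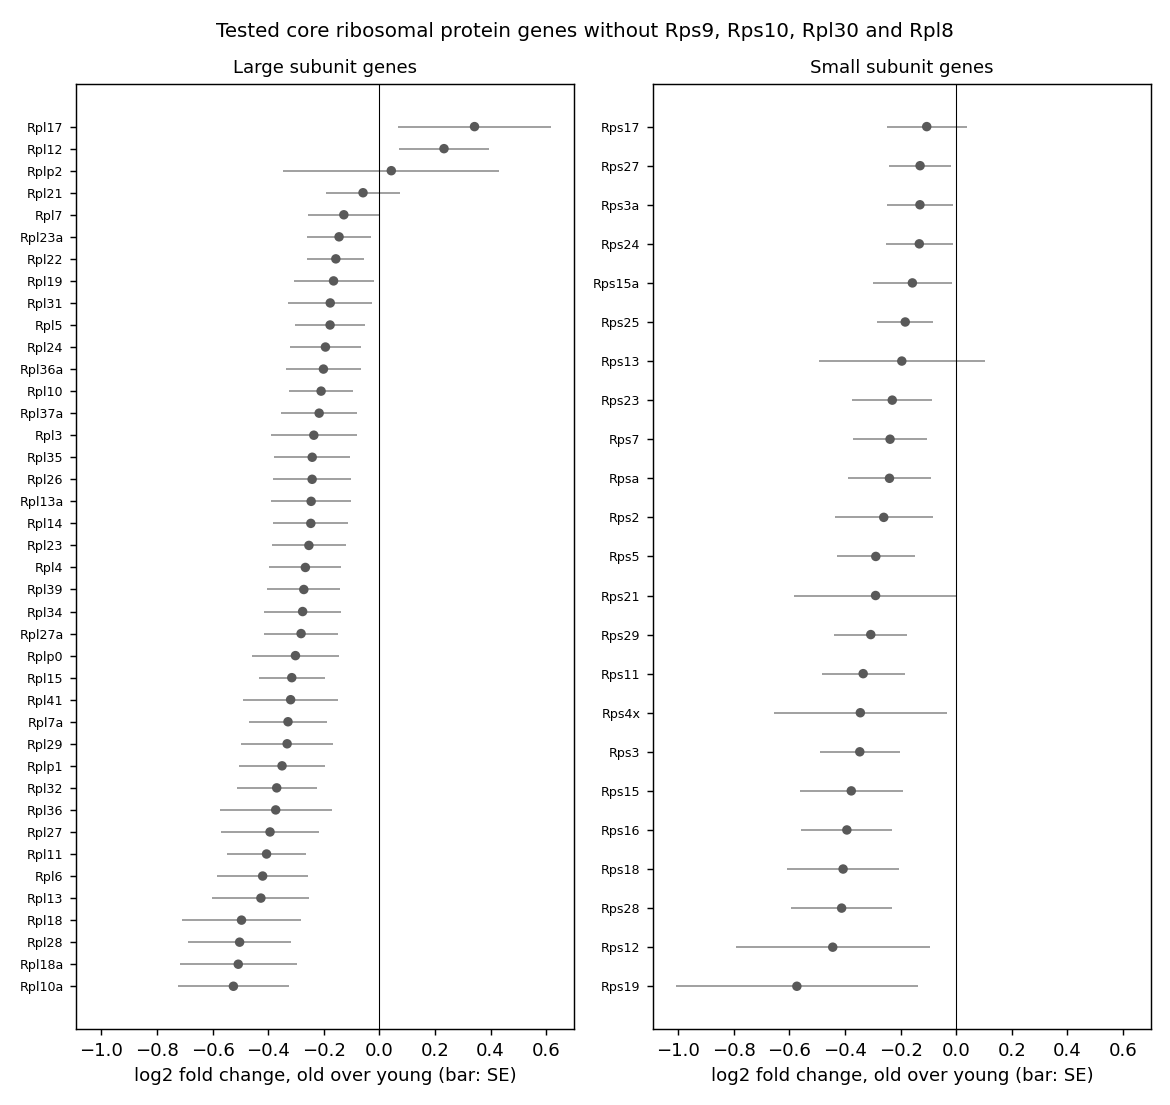
Log2 fold change (old over young) with its SE for 63 tested core ribosomal protein genes other than Rps9, Rps10, Rpl30 and Rpl8, split by subunit. Of these genes 60 lie left of 0, and none passed the test. The genes drawn include 5 that stayed under 5 CPM in every library.

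Both subunits lay mostly below 0, and no test between them was made. Of the 42 tested core genes of the large subunit, 38 lay below 0, with a median log2 fold change of -0.26. Of the 26 of the small subunit, 25 lay below 0, with a median of -0.29. Both subunits together include 5 tested genes of low count and the 4 that differed at least 5-fold between libraries of the same age. The large subunit genes took 75.5 to 76.7% of the counts of all core members in old skin and 75.6 to 75.7% in young skin. The highest of these values, 76.7%, came from old replicate 3, and the other 8 libraries lay between 75.5 and 75.9%.

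As a share of all counts, the 105 members together took 3.38, 2.80, 2.97 and 2.55% in old replicates 1 to 4, against 3.24, 3.15, 3.58, 3.48 and 2.43% in young replicates 1 to 5. The means were 2.93 ± 0.348% (SD, n = 4) in old and 3.18 ± 0.452% (n = 5) in young skin, and the groups overlapped. The lowest share of all was in a young library, replicate 5, which also had the highest share of muscle markers, 16.5%. Old replicate 2, with 16.0% muscle markers, had a ribosomal protein share of 2.80%. Old replicate 3 had the lowest muscle share, 3.45%, and its ribosomal protein share was 2.97%. With muscle marker counts taken out of the totals, the shares were 3.23 ± 0.309% in old and 3.55 ± 0.389% in young skin, again with overlap. The part of muscle content in the difference between the ages was not tested beyond this and a fit with a muscle score, in which the members' median was -0.29 and Rps16 was called lower.

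**Figure D3:**
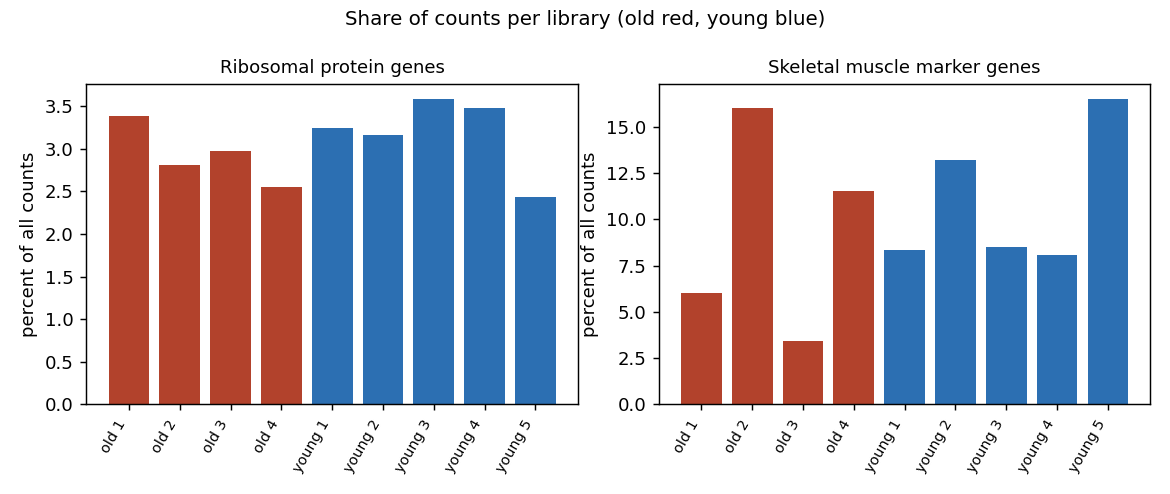
Percent of all counts per library taken by the 105 ribosomal protein symbols (left) and by the 25 skeletal muscle markers (right), old in red and young in blue. Ribosomal protein shares run from 2.55 to 3.38% in old and from 2.43 to 3.58% in young skin. Muscle shares run from 3.45 to 16.0% in old and from 8.08 to 16.5% in young skin.

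The steady core members moved together from library to library. All genes of a library share its scaling factor, and the same counts over all genes were not made. Whether this is particular to these members was therefore not tested. Set against its own mean over the 9 libraries, a steady member was above that mean in all 59 cases in young replicates 2 and 3. In contrast, 2 of 59 were above it in old replicate 4, 9 in old replicate 3, 13 in old replicate 2 and 41 in old replicate 1. Among the other young libraries, 48 were above it in replicate 1, 54 in replicate 4 and 1 in replicate 5. Old replicate 1 thus lay near young replicate 1, and young replicate 5 lay among the lower old libraries. Members spread most from each other in old replicate 3, where the SD of their log2 deviations was 0.31, against 0.07 to 0.13 in the other old libraries and 0.10 to 0.14 in the young ones.

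Rplp0, the scaffold of the stalk, had the highest mean CPM of all members. It stood at 2373, 2156, 1980 and 1857 CPM in old replicates 1 to 4, against 2573, 2835, 2808, 2573 and 2102 CPM in young replicates 1 to 5. The log2 fold change was -0.30 ± 0.16 (SE; edgeR adjusted p = 0.228), and young replicate 5 lay inside the old range. Rplp1 averaged 351 ± 53.6 CPM in old and 448 ± 61.9 CPM in young skin (-0.35 ± 0.15, edgeR adjusted p = 0.165). Rpl4, which lines the tunnel through which the new protein leaves, was the only member whose groups did not overlap, where 16.5% of all genes tested did not overlap and 6.51% were lower in every old library. It stood at 1558, 1500, 1437 and 1437 CPM in old and at 1707, 1902, 1920, 1798 and 1592 CPM in young skin. The gap between the highest old and the lowest young library was small, and the test did not call it (-0.27 ± 0.13, edgeR adjusted p = 0.205; DESeq2 adjusted p = 0.0149).

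Rpsa, a small subunit protein also known as the laminin receptor precursor, stood at 1407, 1383, 1124 and 1176 CPM in old skin, against 1419, 1680, 1643, 1505 and 1266 CPM in young skin (-0.24 ± 0.15, edgeR adjusted p = 0.312). The old values reached into the young range. Rpl11, which with Rpl5 and 5S rRNA forms a particle that restrains the p53 regulator Mdm2, averaged 550 ± 55.6 CPM in old and 728 ± 87.5 CPM in young skin (-0.41 ± 0.14, edgeR adjusted p = 0.0857). Its partner Rpl5 averaged 723 ± 20.9 CPM in old and 818 ± 84.7 CPM in young skin (-0.18 ± 0.13, edgeR adjusted p = 0.376). Both were picked after their values were seen.

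To ask which members departed from the rest, each gene was fitted with the summed tested members as the library size. In this fit 16.3% of all genes passed, and among the members again Rps9 and Rps4y2 did. The steady core members lay between -0.27 for Rpl10a and 0.66 for Rpl17 on the log2 scale, with an SD of 0.16. Rpl17 was split in young skin: it stood at 118, 113, 123 and 122 CPM in old replicates 1 to 4 and at 134 and 140 CPM in young replicates 2 and 3, while young replicates 1, 4 and 5 were at 63.5, 73.1 and 57.5 CPM. Rpl12, which binds at the base of the stalk, was at 159, 104, 169 and 147 CPM in old and at 123, 135, 142, 114 and 101 CPM in young skin. Relative to the other members it was 0.52 higher on the log2 scale in old skin, which did not pass the test.

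The 4 members that differed between libraries of the same age carried the largest fold changes, and their values came in steps. Rps9 was the called member with the largest rise (5.79 ± 1.02, edgeR adjusted p = 0.00612). It stood at 1.11, 130, 93.1 and 43.5 CPM in old replicates 1 to 4, against 0.88, 0.91, 1.94, 1.29 and 1.03 CPM in young replicates 1 to 5. Old replicate 1, with 42 counts, was thus at the young level of 16 to 33 counts, and the other old libraries had 1100 to 3206 counts. The call was kept when any single library was left out and was lost with limma-voom (adjusted p = 0.203).

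Rps10 showed the opposite picture in old skin, at 1.16, 40.3, 0.58 and 0.79 CPM, against 54.3, 49.1, 28.5, 25.6 and 21.9 CPM in young skin. Old replicate 2 alone was at the young level, and the fold change of -1.76 ± 1.17 did not pass (edgeR adjusted p = 0.343). Without that library Rps10 was called lower. Rpl30 stood at 76.4, 77.9, 32.4 and 72.7 CPM in old skin and at 36.5, 43.8, 40.2, 0.27 and 0.29 CPM in young skin. The low values belong to young replicates 4 and 5, each with 5 counts (1.42 ± 1.09, edgeR adjusted p = 0.417). Rpl8 was at 51.9, 18.4 and 19.5 CPM in old replicates 2 to 4, against 45.7 to 66.9 CPM in young skin. In old replicate 1 it had 0 counts, which allows up to 0.158 CPM (3 counts of the halved and TMM-scaled total, counting error only). Old replicate 1 was the lowest old library for both Rps9 and Rpl8. The other steps lay elsewhere, for Rps10 in old replicate 2 and for Rpl30 in young replicates 4 and 5. Rpl8, Rpl30, Rps9 and Rps10 have 6, 15, 17 and 20 copy symbols in RefSeq. Whether reads moved between a gene and its copies was not tested, so none of these 4 fold changes is read as a change of the mRNA.

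**Figure D4:**
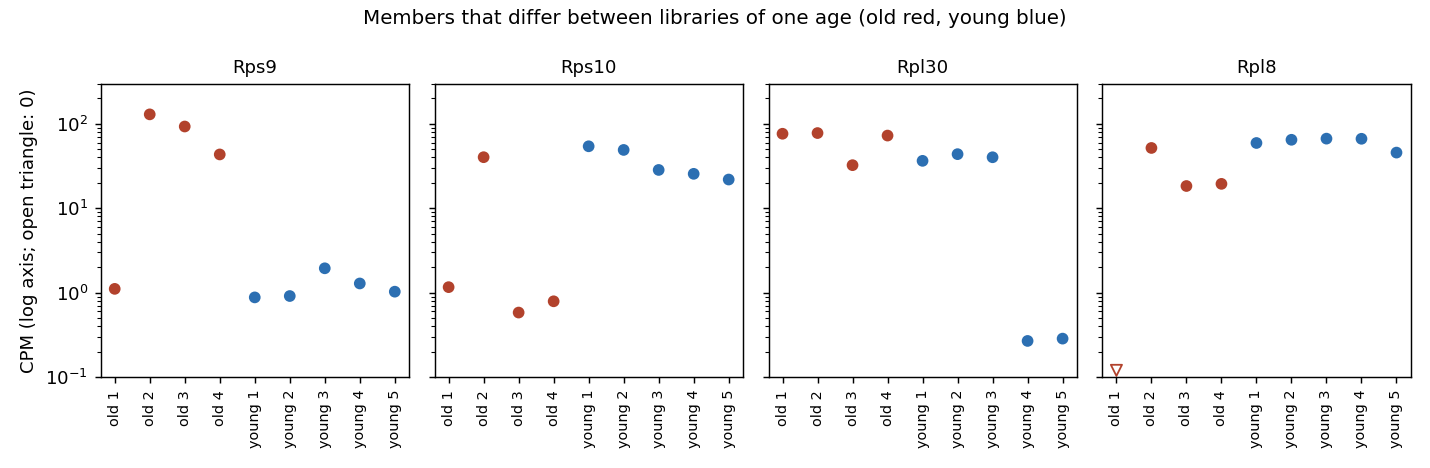
CPM on a log axis in each library (old red, young blue) for Rps9, Rps10, Rpl30 and Rpl8; the open triangle marks a count of 0. Each gene has libraries of the same age far apart: Rps9 runs from 1.11 to 130 CPM within old skin and Rpl30 from 0.27 to 43.8 CPM within young skin.

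For 8 pairs of a paralogue and its core gene, the paralogue's percent of the counts of the pair was compared between libraries. Rpl3l is a paralogue of Rpl3, which lies near the peptidyl transferase centre, and in mouse and human it is expressed in skeletal and heart muscle. It made up 6.62, 17.9, 3.46 and 16.1% of the pair in old replicates 1 to 4, against 8.92, 15.8, 8.91, 8.66 and 19.0% in young replicates 1 to 5. Both ages spanned low and high shares, and the order of Rpl3l shares from old replicate 3 to young replicate 5 was close to that of the muscle marker shares. Per 1000 muscle marker counts, Rpl3l had 1.87, 1.65, 1.66 and 1.84 counts in old and 1.80, 1.97, 1.93, 1.92 and 1.49 counts in young skin. Rpl3l itself averaged 159 ± 102 CPM in old and 209 ± 74.5 CPM in young skin (-0.40 ± 0.46, edgeR adjusted p = 0.596). Its sign depended on the libraries, at 0.25 without old replicates 1 and 3. Rpl3 averaged 1289 ± 146 CPM in old and 1518 ± 191 CPM in young skin (-0.24 ± 0.16, edgeR adjusted p = 0.340).

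**Figure D5:**
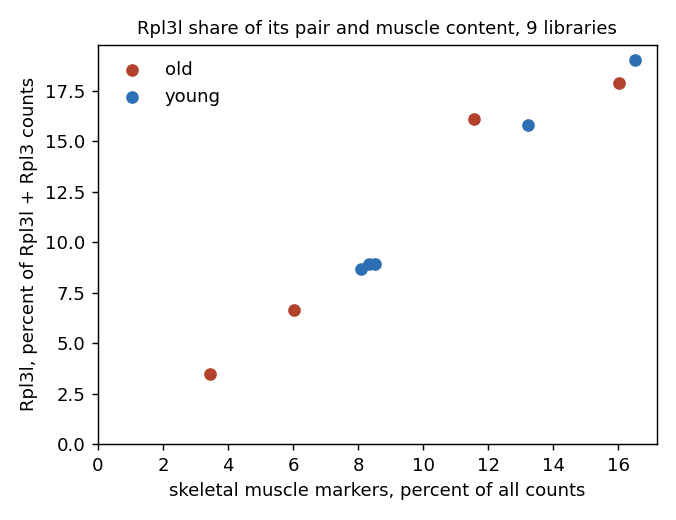
Rpl3l as a percent of the counts of Rpl3l and Rpl3 (vertical) against the percent of all counts taken by skeletal muscle markers (horizontal), 1 point per library, old red and young blue. The points rise together from old replicate 3 (3.45% muscle markers, 3.46% Rpl3l) to young replicate 5 (16.5% and 19.0%), and both ages lie along the same course.

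Rpl22l1, a paralogue of Rpl22, took 40.4, 38.6, 35.0 and 27.9% of its pair in old skin and 47.2, 38.5, 40.0, 39.4 and 37.6% in young skin. Both groups overlapped, with old replicate 4 lowest. It stood at 57.0, 48.4, 39.7 and 26.1 CPM in old and at 70.1, 54.0, 58.6, 60.3 and 45.7 CPM in young skin (-0.43 ± 0.21, edgeR adjusted p = 0.212). Rps27l, a paralogue of Rps27 that p53 induces in human cells, was steady at 22.2 to 24.4% of its pair in old and 19.4 to 24.3% in young skin. Its level was 60.7, 63.0, 53.5 and 51.5 CPM in old, against 66.3, 65.5, 54.4, 63.3 and 57.6 CPM in young skin (-0.10 ± 0.10, edgeR adjusted p = 0.522). The sign of this small value turned with library totals alone, at 0.05.

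Rpl7l1, a relative of Rpl7, took 9.38 to 10.6% of its pair in old and 9.18 to 12.7% in young skin. It stood at 146, 122, 141 and 117 CPM in old and at 186, 145, 149, 156 and 127 CPM in young skin (-0.21 ± 0.13, edgeR adjusted p = 0.319). Rpl36al was at 25.2, 24.9, 17.1 and 18.3 CPM in old and at 30.2, 28.6, 28.2, 28.3 and 20.7 CPM in young skin (-0.35 ± 0.16, edgeR adjusted p = 0.188). Neither separated the ages. Rpl10l, a testis paralogue of Rpl10 in mouse, was near the limit of detection, with 14 to 42 counts in old and 15 to 43 counts in young libraries (-0.75 ± 0.44, edgeR adjusted p = 0.278). Rpl39l, also a testis paralogue in mouse, had 2 to 14 counts in old and 0 to 2 counts in young libraries and was not tested.

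Rps4y2, the second called member, is a relative of Rps4x. It stood at 5.28, 7.30, 2.56 and 5.41 CPM in old skin, against 3.26, 2.68, 2.30, 2.52 and 2.17 CPM in young skin (0.98 ± 0.28, edgeR adjusted p = 0.0458). Old replicate 3 lay inside the young range. As a percent of its pair with Rps4x it was 57.5, 63.1, 62.9 and 64.6% in old and 48.8, 43.1, 29.3, 44.3 and 33.0% in young skin. These groups did not overlap, alone among the 8 pairs looked at, and no background over other gene pairs was computed. Rps4x itself, which has 12 copy symbols in RefSeq, was at 1.51 to 4.27 CPM in old and 3.16 to 5.54 CPM in young skin. It had the lowest mean CPM of the steady members, and only young replicate 3 took it past the limit of 5 CPM. The percent of this pair is therefore not read as a change of the mRNAs. The call of Rps4y2 was close to the threshold: leaving out any single library other than old replicate 3 or young replicate 1 ended it (adjusted p 0.0731 to 0.101), as did limma-voom (0.111), while DESeq2 kept it (0.0117).

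Of the 19 copy symbols, 6 were tested and none was called. The one with the most counts was Rpl5l1, at 87.5, 80.6, 111 and 78.1 CPM in old skin and at 86.6, 107, 107, 96.9 and 88.0 CPM in young skin (-0.12 ± 0.13, edgeR adjusted p = 0.579). Rps15al4 was listed at 0 in all libraries. Rps19bp1, the match by name only, averaged 6.25 ± 0.869 CPM in old and 7.88 ± 1.14 CPM in young skin (-0.33 ± 0.16, edgeR adjusted p = 0.207).

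Some ribosomal proteins have symbols outside the naming rule, and values are given for 2 of them, neither of which was called. Fau, which encodes a ubiquitin-like protein fused to a small subunit protein, averaged 96.9 CPM in old and 116 CPM in young skin (-0.26 ± 0.13, edgeR adjusted p = 0.225). Gnb2l1, the older symbol of the small subunit scaffold Rack1, averaged 914 ± 146 CPM in old and 1183 ± 131 CPM in young skin (-0.37 ± 0.16, edgeR adjusted p = 0.151).

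Genes of the mitochondrial ribosome, which makes the proteins encoded by mitochondrial DNA, lay below 0 in all 74 tested of 76 symbols, with a median log2 fold change of -0.34. Of these, 2 fell: Mrpl11 (-0.54 ± 0.13, edgeR adjusted p = 0.0217) and Mrpl14 (-0.60 ± 0.15, edgeR adjusted p = 0.0291). This count stands against 4.41% of all genes called lower. At an unadjusted p under 0.05, 28 of the 74 were lower and 0 higher, where 13.3% and 16.1% of all genes were. Whether cytosolic and mitochondrial members differed was not tested.

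The other genes of translation are read against all genes tested, of which 9.62% rose and 4.41% fell, 13.3% were lower at an unadjusted p under 0.05, and 54.3% lay below 0. Of 37 tested genes listed with the initiation factors, 34 lay below 0, with a median of -0.32. At an unadjusted p under 0.05, 13 were lower. With adjustment, 3 fell and 0 rose. They were Eif4h, a cofactor of the helicase that unwinds mRNA (313 ± 26.5 CPM in old and 436 ± 31.2 CPM in young skin, edgeR adjusted p = 0.0243), Eif2b2, part of the exchange factor that recharges eIF2 (-0.70 ± 0.19, edgeR adjusted p = 0.0376), and Eif1ad (-0.37 ± 0.10, edgeR adjusted p = 0.0418). Of 13 tested elongation and termination factors, 1 rose and 0 fell, with a median of -0.33. Lower at an unadjusted p under 0.05 were 5 of the 13. The riser was Eif5a2, a homologue of the elongation factor Eif5a, at 15.8 ± 2.97 CPM in old and 8.86 ± 1.07 CPM in young skin (0.84 ± 0.16, edgeR adjusted p = 0.00910). Of 17 other mRNAs known to carry the TOP motif, 0 passed in either direction with edgeR, while 3 were lower at an unadjusted p under 0.05 (13.3% of all genes), and the median was -0.22.

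Of 70 tested ribosome biogenesis genes, 66 lay below 0, with a median of -0.21, where 54.3% of all genes lay below 0. At an unadjusted p under 0.05, 16 were lower (13.3% of all genes). With adjustment, 3 fell and 0 rose, where 4.41% of all genes fell. These 3 were Noc4l and Rrp12, which act in small subunit assembly, and Polr1b, the second largest subunit of the polymerase that makes ribosomal RNA. Polr1b averaged 21.6 ± 2.41 CPM in old and 30.7 ± 4.44 CPM in young skin (-0.51 ± 0.13, edgeR adjusted p = 0.0307). Of 25 tested genes of the mTOR pathway and of ribosome regulation, 2 fell and 1 rose, where 4.41% of all genes fell and 9.62% rose. Their median was -0.09, and 5 were lower and 1 higher at an unadjusted p under 0.05. Rps6kb2, which encodes the second S6 kinase, averaged 31.0 ± 4.55 CPM in old and 52.4 ± 10.3 CPM in young skin (-0.76 ± 0.16, edgeR adjusted p = 0.0126). Myc, a transcription factor that drives ribosome production, averaged 44.5 ± 3.69 CPM in old and 57.8 ± 5.71 CPM in young skin (-0.38 ± 0.10, edgeR adjusted p = 0.0370). Deptor, an inhibitor bound to mTOR, averaged 221 ± 51.7 CPM in old and 128 ± 15.5 CPM in young skin (0.79 ± 0.17, edgeR adjusted p = 0.0136). Of 14 tested factors that bind ribosomes or act in their quality control, 0 passed with edgeR and 4 were lower at an unadjusted p under 0.05 (13.3% of all genes).

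Markers of other cell types differed between the ages, where 9.62% of all genes rose and 4.41% fell. Of 14 tested macrophage markers 14 rose, of 15 fat cell markers 11 rose, and of 10 fibroblast markers 6 rose. Markers of T and NK cells rose in 9 of 11 cases, and 6 of the 8 genes marking blood were higher and 1 lower in old skin by the same test. Only 2 B and plasma cell markers were tested: 0 were called, and both were lower at an unadjusted p under 0.05 (13.3% of all genes). Of 25 skeletal muscle markers 3 fell and 1 rose, of 8 basal keratinocyte markers 1 fell, and of 8 endothelial markers 0 were called. Of 10 tested markers of differentiated keratinocytes 5 fell, and these took 1.54 to 2.60% of counts in old skin and 1.89 to 6.26% in young skin. All 18 hair follicle markers lay below 0, at log2 fold changes of -1.57 to -0.55, and 0 were called by edgeR or reached an unadjusted p under 0.05. They took 0.00946 to 1.24% of counts in old and 0.00566 to 2.88% in young skin, highest in young replicate 1. The lowest was young replicate 5, which also had the lowest ribosomal protein share, 2.43%. Young replicate 2 was nearly as low in follicle markers, at 0.00809%, with a ribosomal protein share of 3.15%. Of 10 proliferation genes 0 were called by edgeR and 1 was lower at an unadjusted p under 0.05, and they took 0.0173 to 0.0399% of counts in old and 0.0219 to 0.0592% in young skin. The part of these shifts in the small displacement of the ribosomal protein genes was not tested, except for the scores named with the processing alternatives.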

How the data were processed

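The authors deposited raw read counts per gene symbol for 9 libraries, in 1 table with a column per sample. Per the labels' protocols, libraries were prepared from polyadenylated RNA, isolated with Qiagen RNeasy, using the TruSeq v2 kit, which does not mark the strand. The submitters' processing notes name BWA. Build, annotation and counting rule: not given in the sources used here. Each column carries the title of its sample. The design text counts animals per group, so samples were taken as separate animals.

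Counts were tested as deposited with edgeR 4.0.16 (R 4.3.3): filterByExpr (minimum count 10, minimum total 15), TMM, quasi-likelihood test, Benjamini-Hochberg adjustment over 14933 genes at 0.05. Log2 fold changes divide old by young, and their approximate SE was derived from the F statistic. Members and lists were chosen with earlier results of these data known. Values were given by rule for called members, paralogues, stalk proteins, Rpsa and the 2 members of highest mean CPM, for up to 4 called genes of each pathway list, and for others named as chosen after their values were seen. Rpl41, Rps2, Rps6, Rpl8, Rpl30, Rps9, Rps10, Rpl12, Rpl17, Rpl10a, Rpl5l1 and Rps19bp1 were also chosen then. No pair of libraries of one age was a duplicate: the lowest chi-square per degree of freedom was 32.2. Pairs of an old and a young library were not compared, and this check does not bear on the even counts of old replicates 1 and 3. The procedure was tested on simulated data. Of the symbols, 97 members matched a current RefSeq symbol and 5 a synonym. DESeq2 1.42.0 and limma 3.58.1 (voom) were alternatives. Figures were drawn with matplotlib 3.10.9. The values of some genes are not reported here.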

Additional observations from a re-analysis of the deposited data

Results flagged for a closer look

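Within one age, 3 values of the 36 groups of values examined stood apart from the others by a gap that is large for the whole range of the group, and chance flags about 1 in 20 groups. Rps10 was at 40.3 CPM in old replicate 2, with a gap of 0.985 of the range to the other old libraries. Rpl30 was at 32.4 CPM in old replicate 3, below the other old libraries, with a gap of 0.887 of the range. Rpl36al was at 20.7 CPM in young replicate 5, below the other young libraries, with a gap of 0.789 of the range.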

How the results depend on the processing

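The fit was repeated under 24 alternatives. The even libraries halved, left out, or halved and thinned to the smallest total were chosen after seeing the data; in all 3 the same 2 members rose and none fell. The number of members that rose was 2 with the settings of the report, 1 with no low-count filter, 1 among the 11 tested members without copy symbols, 0 with limma-voom, 1 with the replicate block, and 1 to 2 when single libraries were left out. The number that fell was 0 with the settings of the report, 9 with DESeq2, 1 with limma-voom, 1, 2 and 3 with the muscle, hair follicle and basal keratinocyte score as covariate, and 0 to 1 when single libraries were left out. The members' median was -0.26, from -0.31 to -0.18 without single libraries, and 0.0050 when scaled to the summed members, as that scaling is built to give. Among the 11 tested members without copy symbols, none of them a core gene, the median was -0.12. Of these 11, 6 are themselves symbols of further copies and 1 is Rps19bp1. Copy symbols were sought by name and no sequence identity was computed, so the 11 are not free of doubt about copies. Over all genes, 659 fell with the settings of the report, 1280 with DESeq2, 312 with library totals alone, 278 scaled to the summed members, 1039, 1033 and 1333 with the muscle, hair follicle and basal keratinocyte scores, 437 without both even libraries, and 236 to 786 without single libraries. Members with no copy symbol of their own, the symbols of further copies among them, took 0.0343% of counts in old and 0.0370% in young skin. The cause of these shifts was not tested.

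Replicate numbers name different animals, so they were not used to pair libraries in the main fit. The deviations of same-numbered libraries correlated at 0.673, -0.0681, 0.0727 and -0.471. These values cannot tell whether same-numbered libraries were handled together. With the replicate number as a block, 1 member rose (Rps9) and none fell, and Rps4y2 had an adjusted p of 0.0903.

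Some signs turned: Rplp2 (0.04) was -0.0548 with limma-voom, -0.0927 with the replicate block, -0.25 with the basal keratinocyte score, and -0.2346 to 0.2995 without single libraries. Rps27l was 0.0506 with library totals, and Rpl3l was 0.25 without both even libraries. Scaled to the summed members, Rpl4 was 0.0065, Rpl7l1 0.0540, Rps27l 0.16 and Rpsa 0.0302. Of 310 member values under alternatives, 286 kept their direction and side of the threshold. Why 14 core members stayed under 5 CPM was not tested.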
